A study of Mus musculus with 3 samples.

Results

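The genes described here make fatty acids from small carbon units and join them to glycerol as triglyceride. They are 36 named genes of fatty acid and triglyceride synthesis, chosen by their symbols in the array's probe table, out of 19938 genes measured. All 36 were measured, by 38 probe sets of 28943, with 1 probe set for each gene except Acaca and Me1, which had 2 each. Expression was measured on 3 mouse arrays, with 1 array per group. The first group was cultured mouse fibroblasts. The second was cells labelled DiBA, in a series whose title concerns brown adipocytes obtained by direct conversion. The third was a sample labelled BA, whose source is given as brown adipose tissue although its description and growth conditions are those of cultured cells. The labels list no treatment for any group and, as used here, give no strain, genotype, age, conversion factors or fibroblast origin.

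With 1 array per group no spread between replicates could be estimated, so there are no p-values, and what follows describes these arrays only. Differences are on the scale log2(intensity + 1). A gene is called higher or lower at 2-fold or more where the brighter of both arrays reached 69.2, the median intensity of all probe sets. That filter lets a gene through on its bright side alone, so counts below are over all 36 members and are set beside the share of all 19938 genes. Intensities of different genes come from different probes and are not compared with each other.

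Lipogenesis starts in the cytosol, where citrate and acetate supply acetyl-CoA, acetyl-CoA carboxylase makes malonyl-CoA, and fatty acid synthase builds palmitate. Elongases and desaturases then lengthen the chain and add double bonds, and acyltransferases esterify the acyl-CoA step by step onto glycerol 3-phosphate, with lipins removing the phosphate before the last acylation. Brown fat stores triglyceride in many small droplets and makes part of its fatty acids itself.

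The upstream sequences of 4 members are shown because 2 of them, Fasn and Thrsp, were higher and 2, Fads2 and Elovl4, were lower in DiBA and BA than in fibroblasts. Each is the 250 bases before a RefSeq transcription start on build GRCm38.p6, written 5′ to 3′ along the gene. Capitals mark matches on either strand to CCAAT, the core letters bound by NF-Y, and to GGGCGG, the core of a GC box.
Fasn promoter, chr11:120824548-120824797, strand -: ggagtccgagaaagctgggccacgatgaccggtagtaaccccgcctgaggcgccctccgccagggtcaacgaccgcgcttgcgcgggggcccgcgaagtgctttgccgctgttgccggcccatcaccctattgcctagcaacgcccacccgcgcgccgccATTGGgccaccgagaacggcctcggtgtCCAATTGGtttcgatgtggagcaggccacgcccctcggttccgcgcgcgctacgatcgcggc
Thrsp promoter, chr7:97417551-97417800, strand -: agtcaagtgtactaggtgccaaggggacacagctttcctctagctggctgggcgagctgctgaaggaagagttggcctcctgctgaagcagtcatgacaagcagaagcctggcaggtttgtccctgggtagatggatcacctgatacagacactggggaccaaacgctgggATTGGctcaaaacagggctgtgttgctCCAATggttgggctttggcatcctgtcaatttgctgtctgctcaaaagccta
Fads2 promoter, chr19:10101504-10101753, strand -: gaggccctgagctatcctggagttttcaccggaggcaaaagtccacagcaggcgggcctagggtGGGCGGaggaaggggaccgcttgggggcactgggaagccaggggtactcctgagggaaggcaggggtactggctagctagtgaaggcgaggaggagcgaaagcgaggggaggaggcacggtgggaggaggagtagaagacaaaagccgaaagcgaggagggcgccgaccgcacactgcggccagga
Elovl4 promoter, chr9:83806306-83806555, strand -: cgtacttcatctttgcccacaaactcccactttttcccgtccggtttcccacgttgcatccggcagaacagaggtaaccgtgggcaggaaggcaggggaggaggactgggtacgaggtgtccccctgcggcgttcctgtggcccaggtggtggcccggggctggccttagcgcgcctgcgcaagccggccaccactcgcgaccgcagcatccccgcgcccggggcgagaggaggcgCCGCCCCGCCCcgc

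In these windows Fasn held 3 matches to CCAAT, the nearest pair overlapping as CCAATTGG, and Thrsp held 2. Fads2 held 1 match to GGGCGG, and Elovl4 held 2 that overlap by their end base, and no match to either motif overlapped the other motif in these 4 windows. Both strands were searched for every motif. Among all 32851 promoter windows of this length, 33.8% held CCAAT and 32.7% held GGGCGG. RefSeq windows matched 27 of the 36 members by symbol, with 38 windows in all. None was matched to Scd1, Scd2, Dgat1, Dgat2, Gpd1, Elovl3, Fads1, Agpat5 or Mogat2. Of 20 windows of 15 members called higher in BA than in fibroblasts, 9 held CCAAT and 8 held GGGCGG. Of 5 windows of 4 members called lower, 2 held CCAAT and 4 held GGGCGG. Of 13 windows of 8 members not called, 3 held CCAAT and 7 held GGGCGG. Acly and Agpat2, called higher, held GGGCGG without CCAAT, and Agpat4 and Elovl1, called lower, held CCAAT. The split of motifs in the 4 windows shown is therefore not that of the members with windows. The letters TCACNCCAC, a form of the sterol regulatory element bound by SREBP proteins, stood in 1 of the 38 member windows, that of Mlxipl, against 1.05% of all windows. The E-box CACGTG stood in 3, of Elovl5, Lpin2 and Mlxipl, against 6.02% of all. Such matches describe letters in a window and do not show binding.

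Of the 36 members, 19 were called higher and 6 lower in DiBA than in fibroblasts, where 8.54% of all genes were called higher and 7.67% lower. In BA against the same fibroblast array, 20 were called higher and 6 lower, against 9.51% and 9.59% of all genes. The median member difference was 1.64 in DiBA and 1.74 in BA, and the median of all genes was 0 in each. Of all genes, 37.0% had equal values in DiBA and fibroblasts and 34.5% in BA and fibroblasts, and the median of 0 falls among these. The level filter was passed by 30 of 36 members in each comparison, against 11621 and 11663 of all 19938 genes. With intensities under 69.2 raised to it, the member medians were 0.80 and 1.07. Differences of at least 8-fold upwards were found for 8 members in DiBA and 10 in BA, where 1.54% and 1.86% of all genes differed that much. Both comparisons use 1 fibroblast array, so they are not independent of each other. In tissue or mixed cultures, fewer cells of a type and less RNA per cell cannot be told apart in such values.

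**Figure D1:**
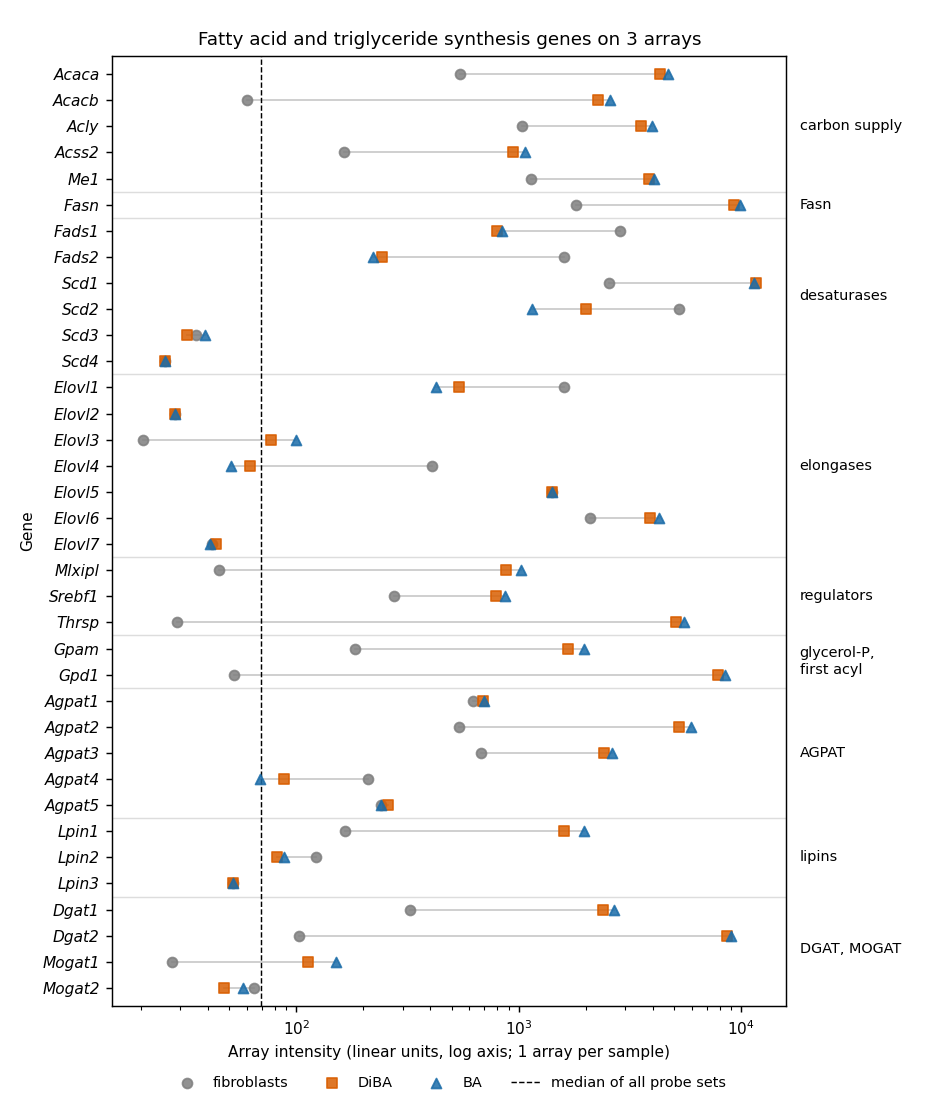
Intensity of each of the 36 genes on the fibroblast (circle), DiBA (square) and BA (triangle) array, on a log axis, with 1 array per sample and no error bars. The dashed line is the median of all probe sets, 69.2. Symbols for DiBA and BA lie close together and away from fibroblasts for most genes, and symbols coincide for Scd4, Elovl2, Elovl5 and Lpin3, whose 3 values were equal.

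All 5 genes that supply carbon and malonyl-CoA were called higher in DiBA and in BA, against 8.54% and 9.51% of all genes. Acly, which cleaves citrate to acetyl-CoA in the cytosol, had an intensity of 1037 in fibroblasts, 3532 in DiBA and 3968 in BA. Its folds over fibroblasts were 3.40 in DiBA and 3.82 in BA. Acss2, which makes acetyl-CoA from acetate, had 164 in fibroblasts, 938 in DiBA and 1062 in BA. The folds were larger than those of Acly, at 5.69 and 6.43. Me1, the cytosolic malic enzyme that yields NADPH, was at 1138, 3848 and 4046 on the fibroblast, DiBA and BA arrays, or 3.38-fold and 3.55-fold higher. Its 2 probe sets gave 1.76 and 1.75 for DiBA minus fibroblasts on the log2 scale.

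The acetyl-CoA carboxylases were both higher, by different folds. Acaca, the cytosolic isoform that feeds fatty acid synthase, was at 545 in fibroblasts, 4310 in DiBA and 4676 in BA, 7.90-fold and 8.57-fold higher. Its 2 probe sets gave 3.12 and 2.84 for DiBA minus fibroblasts. Acacb, the isoform at the outer mitochondrial membrane whose malonyl-CoA restrains fatty acid import, was at 60.1, 2276 and 2578. The fibroblast value of Acacb lay under 69.2, where background weighs on a fold. As measured it was 37.3-fold and 42.2-fold higher, and with values under 69.2 raised to it 32.5-fold and 36.8-fold. Fasn, the synthase itself, was at 1810 in fibroblasts, 9234 in DiBA and 9875 in BA, 5.10-fold and 5.45-fold higher.

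The 3 regulators were called higher in DiBA and in BA, against 8.54% and 9.51% of all genes. Srebf1, which encodes the SREBP-1 factors that switch on lipogenic genes, was at 274 in fibroblasts, 788 in DiBA and 863 in BA, 2.87-fold and 3.15-fold higher. Mlxipl encodes ChREBP, a factor that responds to sugar metabolites. Its intensities were 45.0, 880 and 1024, for folds of 19.2 and 22.3, or 12.6 and 14.6 with the fibroblast value raised to 69.2. Thrsp, a thyroid hormone and diet responsive protein of lipogenic tissues, had 29.2 in fibroblasts, 5081 in DiBA and 5496 in BA. It had the largest difference of all 36 members in either comparison as measured, at 7.40 in DiBA and 7.51 in BA on the log2 scale. With the fibroblast value raised to 69.2 the folds of Thrsp were 72.4 and 78.3, below those of Gpd1 and Dgat2.

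The stearoyl-CoA desaturases, which place the first double bond in a saturated chain, parted by isoform. Scd1, the main form of adipose tissue and liver, was at 2540 in fibroblasts, 11588 in DiBA and 11376 in BA, 4.56-fold and 4.48-fold higher. Scd2, known from brain and from embryonic tissue, was at 5224, 2004 and 1149, so fibroblasts were 2.61-fold above DiBA and 4.54-fold above BA. In RefSeq's gene order Scd3, Scd2, Scd4 and Scd1 follow each other with no other protein-coding gene starting between them. Scd3 and Scd4 stayed under 69.2 on all arrays, Scd3 between 32.4 and 39.0 and Scd4 at 25.7 on each. The Scd genes are close in sequence, and cross-hybridization between them was not tested.

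The front-end desaturases of polyunsaturated fatty acids were both lower. Fads1, the delta-5 desaturase, was at 2842 in fibroblasts, 798 in DiBA and 836 in BA, so fibroblasts were 3.56-fold and 3.40-fold above. Fads2, the delta-6 desaturase, was at 1595, 243 and 221. Fibroblasts were 6.54-fold above DiBA and 7.19-fold above BA for Fads2, which was the lowest difference of the 36 in DiBA, at -2.71. Of the 6 desaturases in the list, 1 was called higher and 3 lower in each comparison, where 8.54% and 7.67% of all genes were called in DiBA and 9.51% and 9.59% in BA.

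The 7 elongases, which add carbons to long chains, gave calls in both directions. Elovl6, which takes palmitate to stearate, was at 2084 in fibroblasts, 3892 in DiBA and 4245 in BA. Its folds of 1.87 and 2.04 fell on either side of the 2-fold limit, which makes it the member called in BA and not in DiBA. Elovl3, an elongase of brown fat and skin that also stands in the brown adipocyte marker list used here, was at 20.5, 76.7 and 99.4. The 3.62-fold and 4.68-fold differences of Elovl3 rest on that dim fibroblast value and were 1.11-fold and 1.43-fold with it raised to 69.2, which ends both calls.

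Elovl1, which lengthens saturated chains of very long length, was at 1598 in fibroblasts, 538 in DiBA and 426 in BA, with fibroblasts 2.97-fold and 3.74-fold above. Elovl4, an elongase of very long chains in retina, skin and brain, was at 408, 61.9 and 50.9. Fibroblasts were 6.50-fold above DiBA and 7.88-fold above BA for Elovl4, and BA minus fibroblasts, -2.98, was the lowest of the 36 as measured. With its dim DiBA and BA values raised to 69.2 Elovl4 was 5.83-fold lower in each, and Fads2 at -2.85 was then the lowest in BA. Elovl5, an elongase of polyunsaturated chains, had the same intensity of 1406 on all 3 arrays. Elovl2 was equal on all arrays at 28.4, and Elovl7 lay between 41.1 and 43.7, both under the median of all probe sets.

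Equal values need care in these data. Of all genes, 31.4% carried exactly the same value on the 3 arrays, and of the members Scd4, Elovl2, Elovl5 and Lpin3 did. How the deposited values came to be equal is not given in the sources used here, so a difference of 0 for Elovl5 is not evidence of equal expression.

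**Figure D2:**
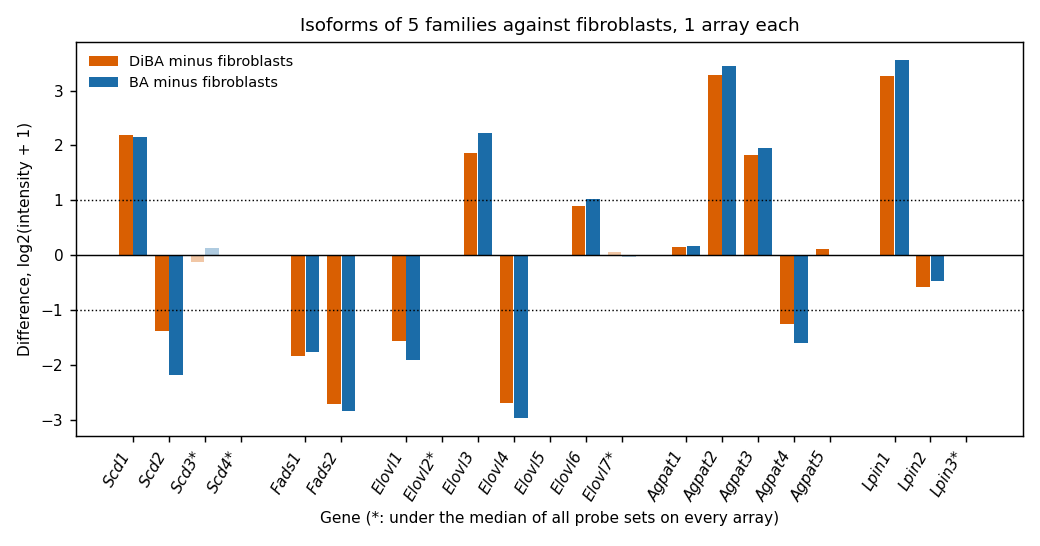
Difference from the fibroblast array in log2(intensity + 1) for DiBA (orange) and BA (blue), for 21 isoforms of 5 families, with 1 array each and no error bars. Dotted lines mark 2-fold, pale bars with an asterisk are genes under 69.2 on every array, and a missing bar is a difference of 0. Scd1, Elovl3, Elovl6, Agpat2, Agpat3 and Lpin1 point up while Scd2, Fads1, Fads2, Elovl1, Elovl4 and Agpat4 point down.

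Transcripts for glycerol phosphate supply and the first acylation were both called higher in DiBA and in BA, against 8.54% and 9.51% of all genes. Gpd1, which makes glycerol 3-phosphate from a glycolytic intermediate, was at 52.6 in fibroblasts, 7851 in DiBA and 8442 in BA. These values gave folds of 147 and 158, or 112 and 120 with the fibroblast value raised to 69.2. Gpam, the mitochondrial acyltransferase that adds the first chain, was at 184, 1665 and 1972, 9.00-fold and 10.7-fold higher.

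The Agpat enzymes, which add the second chain, split into higher, lower and near-level genes. Agpat2, whose loss causes lipodystrophy, was at 537 in fibroblasts, 5228 in DiBA and 5914 in BA, 9.71-fold and 11.0-fold higher. Agpat3 was at 679, 2404 and 2631, 3.54-fold and 3.87-fold higher. Agpat4 went the other way, at 211, 88.0 and 68.6, with fibroblasts 2.38-fold and 3.04-fold above. Agpat1 and Agpat5 were not called, with differences of 0.15 and 0.11 in DiBA and 0.16 and 0 in BA. The last is 0 because Agpat5 was equal at 240 in fibroblasts and BA, and that tie is not evidence of equal expression.

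Among the lipins, phosphatidate phosphatases that yield diacylglycerol, Lpin1 was called higher. Lpin1, the form known from adipose tissue and muscle, was at 166 in fibroblasts, 1603 in DiBA and 1971 in BA, 9.63-fold and 11.8-fold higher. Lpin2 was at 123, 82.0 and 87.8, for differences of -0.57 and -0.48 that were not called. Lpin3 was at 52.0 on all 3 arrays, under the median of all probe sets.

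Transcripts of both Dgat enzymes, which catalyse the last acylation, were higher. Dgat2, the acyltransferase tied to newly made fatty acids, was at 103 in fibroblasts, 8649 in DiBA and 9003 in BA, 83.1-fold and 86.5-fold higher. Since its fibroblast value was above 69.2, that fold was the same with and without the raised floor. Dgat1, the other diacylglycerol acyltransferase, was at 325, 2399 and 2684, 7.36-fold and 8.24-fold higher.

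Of the monoacylglycerol acyltransferases, Mogat1 was at 27.7, 113 and 151, called at 3.98-fold and 5.30-fold. With 69.2 as floor these were 1.63-fold and 2.17-fold, which ends the call in DiBA. Mogat2, the neighbour of Dgat2 in RefSeq's gene order and an enzyme of intestinal fat absorption, lay under 69.2 on every array, at 64.8, 47.4 and 57.4.

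Other genes of the pathway, 51 listed and 44 measured, were also called in both directions. In DiBA 19 were called higher and 4 lower than in fibroblasts, and in BA 21 and 4, with medians of 0.77 and 0.88. Of all genes, 8.54% and 7.67% were called higher and lower in DiBA and 9.51% and 9.59% in BA, so the count of 4 lower in 44 is near the background. In both comparisons the 3 with the highest differences were Acss1, a mitochondrial acetyl-CoA synthetase, at 4.81 and 5.06, Pnpla3, a lipid droplet acylhydrolase, at 4.50 and 4.75, and Acss3, an acyl-CoA synthetase, at 4.40 and 4.55. All 3 lay under 69.2 in fibroblasts, at 48.2, 52.9 and 24.0. With values under 69.2 raised to it, Acss3 was at 2.91 and 3.06, below Pcx, the pyruvate carboxylase gene, at 3.78 and 3.97, which then took the third place in both comparisons.

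The lower ones included Srebf2, which encodes the SREBP-2 factor of cholesterol synthesis, at 970 in fibroblasts, 298 in DiBA and 262 in BA. Its differences of -1.70 and -1.89 run opposite to those of Srebf1. Fads3, the neighbour of Fads2, was also lower, at -1.40 and -1.23. Hacd4, a dehydratase of the elongation cycle, was at -1.62 in both comparisons, with equal values in DiBA and BA. Degs1, the dihydroceramide desaturase, was at -1.11 and -1.36, and these 4 were the ones called lower in each comparison.

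Between DiBA and BA 0 of 36 members reached 2-fold in either direction, where 0.973% of all genes were called higher and 0.0% lower in DiBA. Member differences ran from -0.41 to 0.80, with a median of -0.10. DiBA was below BA for 24 members, above for 8 and equal for 4, against 30.8% of all genes below, 24.1% above and 45.0% equal. The many equal values lower both background shares. Of the 36 members 20 were called higher in BA than in fibroblasts, and over all 1897 genes so called the median of DiBA minus BA was -0.19. With each array centred on its median, 29 members were below and 7 above, and Scd1 moved from 0.03 to -0.05. Among the 20 members called higher in BA than in fibroblasts, DiBA held between 74.9% (Mogat1) and 102% (Scd1) of the BA intensity, with a median of 90.3%. Over all 1897 genes called higher in BA the median was 87.9%, with quartiles of 83.1% and 92.8%. These genes were picked because they were higher in BA. How far that choice lowers the shares was not tested, so they are not read as a shortfall.

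The members with the highest DiBA minus BA values were ones that were lower than in fibroblasts. For the 6 members called lower in BA, DiBA held a median of 124% of the BA intensity. Over all 1913 genes called lower in BA the median was 125%, with quartiles of 109% and 151%, so the direction is not particular to the members. Scd2 was 1.74-fold higher in DiBA, at 2004 against 1149, outside the central range of -0.28 to 0.50 that held the 5th to 95th percentile of genes passing the level filter. Agpat4 was next at 0.35, then Elovl1 at 0.33 and Elovl4 at 0.28, the last with both values under 69.2. On the other side stood Mogat1 at -0.41, Elovl3 at -0.37 and Lpin1 at -0.30, which also lay outside that range. All of these were called higher in BA than in fibroblasts. Over the 1897 genes so called the 5th percentile was -0.40 and the median -0.19, so Elovl3 and Lpin1 lay above that percentile. Fasn, Thrsp, Gpd1, Dgat2 and Scd1 differed by -0.10, -0.11, -0.10, -0.06 and 0.03. None of the other pathway genes reached 2-fold between DiBA and BA, 0 of 44.

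**Figure D3:**
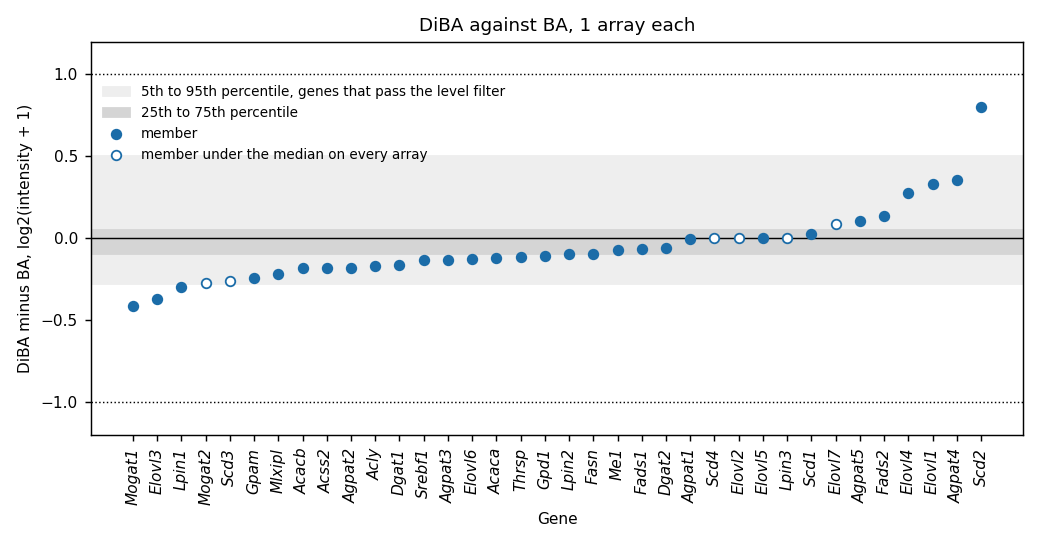
DiBA minus BA in log2(intensity + 1) for each of the 36 genes, ordered by value, 1 array each and no error bars. Open circles are genes under 69.2 on every array, grey bands are percentiles of all genes passing the level filter, and dotted lines mark 2-fold. All genes lie between the dotted lines, and Scd2 at 0.80 lies highest.

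Marker genes were checked against the labels, and several lists differed between the arrays alongside the members. Against fibroblasts, 8.54% of all genes were called higher and 7.67% lower in DiBA, and 9.51% and 9.59% in BA. All 10 general adipocyte markers were called higher than in fibroblasts in DiBA and in BA, with summed intensities of 1069 in fibroblasts, 47082 in DiBA and 49934 in BA. Of 10 brown adipocyte markers 9 were called higher in each, with sums of 660, 26331 and 27302, and 7 in each with values under 69.2 raised to it, since 8 of the 10 lay under 69.2 in fibroblasts. Fibroblast markers summed to 41707 in fibroblasts, 14083 in DiBA and 9877 in BA, and 7 and 8 of 10 were called lower in DiBA and BA. Between DiBA and BA the fibroblast markers Fn1 and Lox were called higher in DiBA, as was Prdm16 among the brown markers.

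Markers of other cell types also differed, in DiBA as in BA, where 8.54% and 9.51% of all genes were called higher than in fibroblasts. Skeletal muscle markers were called higher for 10 of 10 genes in each, with sums of 1175 in fibroblasts, 13043 in DiBA and 14951 in BA, led by the creatine kinase gene Ckm at 94.7, 2489 and 2805. Endothelial markers were called higher for 8 of 10 in DiBA and 9 of 10 in BA, with sums of 708, 3492 and 4154, and macrophage and immune markers for 8 and 7 of 10, with sums of 1076, 4620 and 4725. With the same floor 7 and 6 macrophage and immune markers were called. Schwann cell markers, with 4 of 7 measured, summed to 4128, 2525 and 2747, with 1 called higher in each. Most of that sum was Pmp22, at 3921, 2089 and 2246, while S100b, the 1 called higher, was at 52.8, 214 and 260. Erythrocyte markers, with 2 of 6 measured, summed to 97.7, 340 and 420, with 1 called higher. All 6 measured hepatocyte markers lay under 69.2 on every array, and 0 markers of any list had an intensity of 0. The part of muscle, endothelial and immune cell RNA in the values of the 36 genes was not tested.

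**Figure D4:**
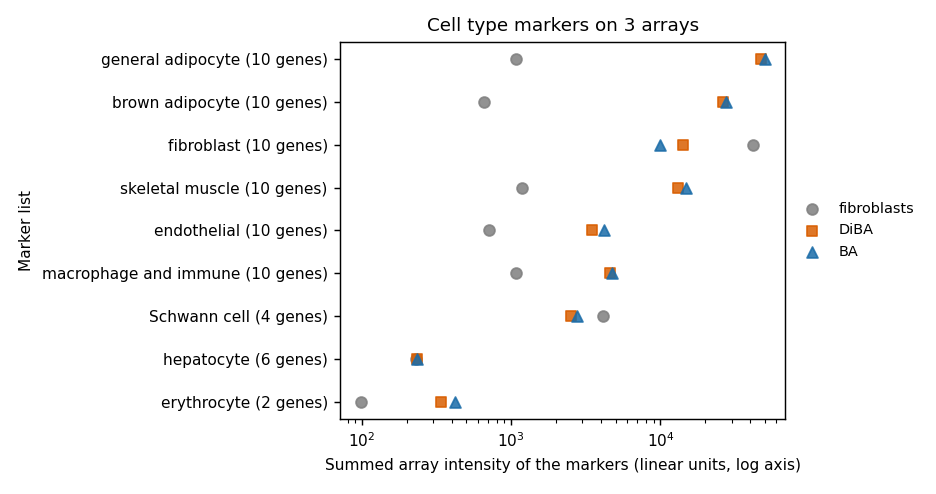
Summed intensity of each marker list on the fibroblast (circle), DiBA (square) and BA (triangle) array, on a log axis, with 1 array per sample and no error bars. Adipocyte, muscle, endothelial and immune markers were brighter in DiBA and BA than in fibroblasts, and fibroblast markers dimmer, at 14083 and 9877 against 41707.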

How the data were processed

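Total RNA of 3 mouse samples was hybridised to 1 single-colour array each, after fragmentation and biotin labelling, per the labels' protocols. The authors deposited 1 linear intensity per probe set and array, and the submitters' processing notes name Affymetrix Expression Console. Its version, and how it corrected, normalized and summarized the signals, is not given in the sources used here. Array medians were 67.8 (fibroblasts), 71.5 (DiBA) and 67.7 (BA), so the values were used as normalized. The number of arrays limits the precision.

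Probe sets with 1 symbol in the platform table (21789 of 28943) gave 19938 genes, and log2(intensity + 1) was averaged over a gene's probe sets. RefSeq held the same symbol for all 38 member probe sets. Members, lists and rules for naming genes (all members, the 3 highest and 3 lowest other pathway genes called, and every one called between DiBA and BA) were chosen with earlier results of these data known. Degs1 is named beyond that rule in DiBA, and Fads3 in BA, as the fourth of 4 genes called lower. Pcx was chosen after its values were seen. The calls and the quantile normalization were tested on simulated data, with an assumed noise and without the equal values of these arrays. The other steps were not tested in that way. Alternatives were array centring, quantile normalization, a pseudocount of 16, other filters, a floor of 69.2 and the brightest probe set per gene. Analysis used Python 3.11.15 with pandas 2.3.3.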

Additional observations from a re-analysis of the deposited data

How the results depend on the processing

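The 7 alternatives left the counts of members called higher and lower within 1.5 times of the main counts in all 3 comparisons: 17 to 19 higher and 5 to 6 lower in DiBA against fibroblasts, 18 to 20 and 5 to 6 in BA, and 0 and 0 between DiBA and BA. No member changed the direction of a call. The median member difference between DiBA and BA moved from -0.10 to -0.18 with each array centred on its median, a setting that moved the median of all genes in that comparison by -0.08. With a filter at the 75th percentile, 246, the calls of Elovl3, Agpat4 and Mogat1 against fibroblasts were lost in DiBA and in BA. With intensities under 69.2 raised to it, Elovl3 fell below 2-fold in both (0.15 and 0.52) and Mogat1 in DiBA (0.70), while the median member differences were 0.80 in DiBA and 1.07 in BA. No paired analysis was possible because each group holds 1 array, and for the same reason no replicate could be left out.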
